A study of Homo sapiens with 6 samples.

Results

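The EGF and neuregulin family comprises the secreted and membrane-anchored proteins that activate the ERBB receptors. The 10 genes described here are EREG, AREG, HBEGF, TGFA, EGF, BTC, EPGN, NRG1, NRG2 and NRG4, among 19973 genes counted by RNA-seq. They were chosen by family membership, as rows of the count table carrying these symbols, with the earlier fold changes of the same comparison already known. Their values in that comparison are therefore given as a description, without p-values. RNA came from cells labelled OVCAR3, an established epithelial ovarian cancer (EOC) line. The cells carried either shNC, a control hairpin, or shNUF2, a hairpin against the kinetochore gene NUF2, introduced by transfection of a plasmid. The labels give the genotype as WT for the shNC cells and as NUF2 knockdown for the shNUF2 cells. There were 3 libraries per group. Knockdown rested on a single hairpin sequence in a vector with a puromycin marker. The study's text describes stable OVCAR3 cells with NUF2 silencing. Whether the sequenced cells were these, and whether the libraries of a group came from separate cultures, is not stated in the sources used here. The p-values then measure only the spread between these libraries, which may be technical.

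EGF-like growth factors are made as membrane-anchored precursors. Metalloproteases of the ADAM family cut most of them at the cell surface, and the freed domain binds a receptor on the same or a neighbouring cell. EGF, TGFA, AREG and EPGN bind EGFR, whereas HBEGF, BTC and EREG bind both EGFR and ERBB4. NRG1 and NRG2 bind ERBB3 and ERBB4, and NRG4 binds ERBB4. ERBB3 has little kinase activity of its own and signals in pairs with other ERBB receptors, mainly into the PI3K-AKT axis. Epithelial tumor cells, those of the ovary included, can make these ligands for their own receptors.

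Total counts ranged from 14115009 to 16995452 reads in the shNC libraries and from 13057534 to 15227460 in the shNUF2 libraries. NUF2 itself had 65.2 ± 2.94 CPM (counts per 1000000 reads of a library, its size scaled by the TMM method) with shNC and 22.9 ± 2.4 with shNUF2 (SD, n = 3 each). Of 12 markers of ovarian carcinoma and epithelial cells, FOLR1, MSLN and KRT7 were abundant, whereas WT1, SOX17, KRT19 and CDH1 stayed below 1 FPKM (fragments per kilobase of gene and per 1000000 reads) in every library, and the summed level of the list lay between 3736 and 4027 FPKM with shNC and between 3087 and 3225 with shNUF2. Most of that sum was FOLR1, at 3499 and 2755 FPKM. KRT8 was called higher, at 49.5 and 99.2 FPKM, and 0 genes of the list were called lower. KRT18, PAX8 and EPCAM had log2 fold changes of 0.55, 0.64 and 0.69, and MUC16, MSLN and CDH1 of -0.75, -0.75 and -0.72. The identity of the line was not tested beyond these markers. Summed over their lists of 5 and 7 genes, endothelial and fibroblast markers were far lower, with 5 of 5 and 6 of 7 genes below 1 FPKM in every library. Endothelial markers lay between 0.306 and 0.454 FPKM with shNC and between 0.749 and 0.994 with shNUF2, with CDH5 and TEK called higher, although neither had enough reads for the test in any shNC library. Of the 6 leukocyte markers, 2 were tested and 1 of them was called higher. CD3E and CD68 stood at 3 reads or fewer in every library. PTPRC, too low for the test, stood at 0, 1 and 0 reads under shNC, against 6, 11 and 6 under shNUF2. CD14, also too low, stood at 0, 3 and 1 reads under shNC, against 10, 6 and 11 under shNUF2. Fibroblast markers lay between 9.44 and 10.1 with shNC and between 7.36 and 8.24 with shNUF2. Most of that sum was COL1A1, at 9.19 and 6.84 FPKM, while DCN was called higher, at 0.286 and 0.646 FPKM, and COL3A1, too low for the test, stood at 1, 0 and 2 reads under shNC, against 15, 15 and 5 under shNUF2. The part of other cell types in the results below was not tested. In RNA from bulk cells, fewer cells of a type and less RNA per cell cannot be told apart.

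EPGN, EREG, AREG and BTC lie next to each other on chromosome 4. Promoters of EREG and AREG, the pair of neighbours called higher, are shown with that of EPGN, the third neighbour on the same strand, and with that of HBEGF, a ligand gene on chromosome 5 that was also called higher. Each window holds 300 bases of RefSeq sequence (GRCh38.p14), 250 before and 50 from the annotated start, written 5′ to 3′ on the strand of the gene. Capitals mark exact matches on either strand to TATAAA, the core of the TATA box, or to TGACGTCA, the cAMP response element (CRE). TGANTCA, the AP-1 site, and the CArG box bound by serum response factor were searched as well, and no matches overlapped.
EREG (chr4:74364895-74365194, plus strand): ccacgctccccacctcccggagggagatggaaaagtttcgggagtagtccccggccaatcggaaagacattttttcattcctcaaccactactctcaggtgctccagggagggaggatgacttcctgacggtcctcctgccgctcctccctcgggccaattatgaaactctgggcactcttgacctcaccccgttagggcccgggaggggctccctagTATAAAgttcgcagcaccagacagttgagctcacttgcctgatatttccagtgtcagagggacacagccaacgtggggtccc
AREG (chr4:74444886-74445185, plus strand): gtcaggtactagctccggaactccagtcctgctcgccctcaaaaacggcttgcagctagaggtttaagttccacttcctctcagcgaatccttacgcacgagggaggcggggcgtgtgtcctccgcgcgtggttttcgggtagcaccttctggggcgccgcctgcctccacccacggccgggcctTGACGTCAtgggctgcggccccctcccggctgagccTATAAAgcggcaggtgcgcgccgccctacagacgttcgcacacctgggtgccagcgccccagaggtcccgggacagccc
EPGN (chr4:74308220-74308519, plus strand): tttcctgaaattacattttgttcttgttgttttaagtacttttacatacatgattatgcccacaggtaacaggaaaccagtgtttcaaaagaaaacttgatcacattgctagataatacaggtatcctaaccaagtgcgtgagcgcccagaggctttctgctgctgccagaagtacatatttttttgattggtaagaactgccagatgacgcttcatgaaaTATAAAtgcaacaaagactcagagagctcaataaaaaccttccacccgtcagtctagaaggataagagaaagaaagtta
HBEGF (chr5:140346554-140346853, minus strand): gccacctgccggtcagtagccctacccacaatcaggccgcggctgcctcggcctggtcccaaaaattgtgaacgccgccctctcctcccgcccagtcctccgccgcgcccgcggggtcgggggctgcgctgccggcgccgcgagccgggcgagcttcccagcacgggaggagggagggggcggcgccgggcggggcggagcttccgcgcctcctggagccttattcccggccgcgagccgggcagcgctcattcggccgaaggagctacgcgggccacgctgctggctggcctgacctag

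TATAAA stood at positions -32 to -27 of EREG, -29 to -24 of AREG and -29 to -24 of EPGN, where the start base is position 0. AREG alone among the 9 members with a window also had the CRE, at -65 to -58. HBEGF held none of the motifs searched, and neither did the windows of TGFA, BTC and NRG2. NRG4 held TATAAA at -8 to -3 and at 15 to 20, and EGF held TGANTCA at -17 to -11. Of all 35116 promoter windows, 11.5% contained TATAAA, 1.85% the CRE, 7.71% TGANTCA and 1.29% the CArG box, which no member window held. The G and C content was 37.7% in EPGN, 57.7% in EREG, 66.3% in AREG and 75% in HBEGF, against a median of 58.7% over all windows. Windows were found for 9 of the 10 members. NRG1 had no entry.

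Of the 10 genes, 7 had enough reads to be tested. Of these, 5 were called higher with shNUF2, namely EREG, AREG, HBEGF, TGFA and NRG1, the other 2, EPGN and NRG4, were not called, and 0 were called lower. A gene was called at an unadjusted p under 0.05 together with a log2 fold change past 1 in size, in edgeR's quasi-likelihood fit over 12874 genes, and a call is a description here, since the genes were chosen with this comparison known. The read filter asked for 0.682 CPM in at least 3 libraries. EREG, HBEGF, TGFA and NRG4 met it in all 6 libraries, whereas AREG met it in 1 shNC and 3 shNUF2 libraries, NRG1 in 2 and 3, and EPGN in 1 and 2, so that AREG and NRG1 were tested only through their shNUF2 libraries. The same thresholds called 9.41% of all genes tested higher and 4.16% lower. BTC, EGF and NRG2 had too few reads for the test. After scaling, the groups did not overlap and shNUF2 was the higher in 7 of the 10 genes, among them 6 of the 7 tested, as was the case for 35.2% of all genes tested. The number of ligand genes counted as higher was also 5 with the replicate number as a block.

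**Figure D1:**
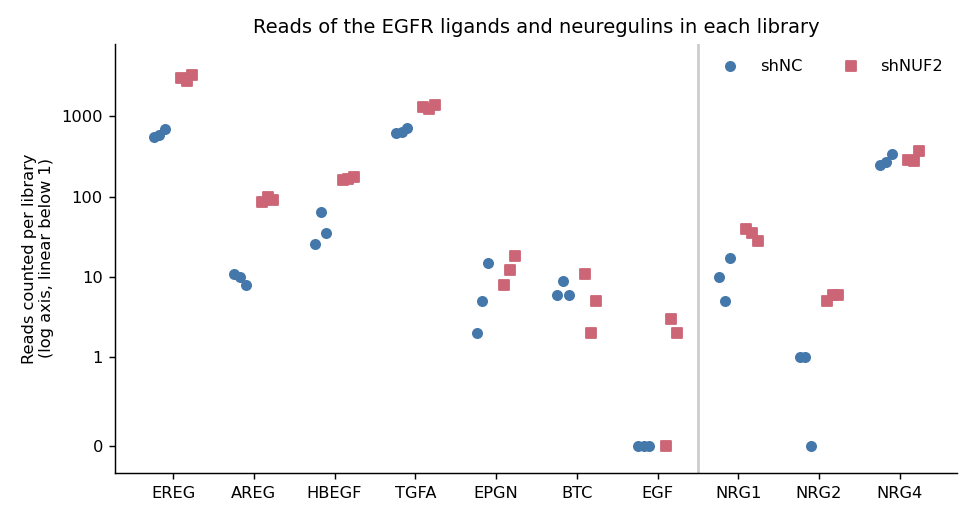
Reads counted for each ligand gene in each of the 3 shNC (circles) and 3 shNUF2 (squares) libraries, on a log axis that is linear below 1, with EGFR ligands left of the line and neuregulins right of it. EREG, AREG, HBEGF and TGFA separated by group, whereas EPGN and BTC did not.

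EREG encodes epiregulin, a ligand of EGFR and ERBB4 (ENSG00000124882, chromosome 4 of GRCh38 from 74365145 to 74388749). Its reads numbered 553, 591 and 687 under shNC, against 3023, 2744 and 3305 under shNUF2. The lowest shNUF2 library held several times the reads of the highest shNC library, and replicates within a group lay close together. Scaled to library size, EREG had 38.6 ± 1.5 CPM with shNC and 218 ± 6.68 with shNUF2 (SD, n = 3 each), 5.66 times as much. On the log2 scale the fold change was 2.50 with a standard error of 0.05, the 217th highest of the 12874 genes tested. By its level in FPKM, EREG moved from rank 5946 to rank 1035 among the 19973 genes listed.

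AREG encodes amphiregulin, an EGFR ligand, and lies 80.0 kb downstream of the start of EREG on the same strand (ENSG00000109321, from 74445136 to 74455005). Reads of AREG numbered 11, 10 and 8 under shNC, against 86, 99 and 90 under shNUF2. Only 1 of the 3 shNC libraries met the read filter, and AREG entered the test through the group where it was high. The CPM was 0.622 ± 0.154 with shNC and 6.66 ± 0.852 with shNUF2 (SD, n = 3 each), and the log2 fold change was 3.42 with a standard error of 0.29, the 97th highest of all genes tested. The 29 reads of the shNC libraries together have an exact 95% Poisson interval of 19.4 to 41.6, and the 275 reads of the shNUF2 libraries one of 243 to 309, which cover counting error only.

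HBEGF encodes heparin-binding EGF-like growth factor, a ligand of EGFR and ERBB4 (ENSG00000113070, chromosome 5 from 140332843 to 140346603). Under shNC 26, 64 and 35 reads were counted for HBEGF, and under shNUF2 162, 168 and 178. The shNC libraries were uneven, with replicate 2 well above the other two, whereas the shNUF2 libraries were even. The coefficient of variation was 45.8% with shNC and 4.76% with shNUF2. The log2 fold change was 2.21 with a standard error of 0.21, and it was 2.65 without shNC replicate 2.

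TGFA encodes transforming growth factor alpha, an EGFR ligand (ENSG00000163235, chromosome 2 from 70447284 to 70554193). Counts of TGFA were 622, 642 and 727 under shNC, compared with 1320, 1230 and 1369 under shNUF2. The groups did not overlap, and the fold change was the smallest among the called EGFR ligands. The CPM was 42.1 ± 1.8 with shNC and 94.5 ± 3.45 with shNUF2 (SD, n = 3 each), with a log2 fold change of 1.17 and a standard error of 0.06, close to the threshold of 1.

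EPGN encodes epigen, an EGFR ligand (ENSG00000182585, chromosome 4 from 74308470 to 74316789). For EPGN, 2, 5 and 15 reads were counted under shNC, and 8, 12 and 18 under shNUF2. The groups overlapped, since shNC replicate 3 held more reads than shNUF2 replicates 1 and 2. The log2 fold change was 0.97 with a standard error of 0.53. It became 1.93 (standard error 0.68) and passed the thresholds without shNC replicate 3, and was 0.59 without shNC replicate 1.

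BTC encodes betacellulin, which binds EGFR and ERBB4 (ENSG00000174808, chromosome 4 from 74744759 to 74794523, minus strand). For BTC, 6, 9 and 6 reads were counted under shNC, and 11, 2 and 5 under shNUF2. The groups overlapped, with the highest and the lowest value both in shNUF2 libraries. The ratio of summed reads per library size was 0.979, with an exact 95% interval of 0.492 to 1.93 for counting error only, so that a change within these limits was not detectable at this depth. EGF, the founding member of the family (ENSG00000138798, chromosome 4 from 109912883 to 110013766), was at 0 reads throughout the shNC group, while the shNUF2 libraries had 0, 3 and 2 of its reads. For 0 against 5 summed reads, the exact 95% interval of the ratio per library size starts at 1.05 and has no upper limit, for counting error only. The reads came from 2 of the 3 shNUF2 libraries, so the groups overlapped at 0.

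NRG1 encodes neuregulin 1, a ligand of ERBB3 and ERBB4 (ENSG00000157168, chromosome 8 from 31639222 to 32855666). Reads of NRG1 numbered 10, 5 and 17 under shNC, against 39, 35 and 28 under shNUF2. The groups did not overlap, although the libraries of each group differed among themselves. The log2 fold change was 1.86 with a standard error of 0.38, and it ranged from 1.52 to 2.28 as single libraries were left out. The deposited length of NRG1, 21398 bp, exceeds that of its longest coding transcript in GENCODE release 29, 5931 bp, so that its FPKM is low for the number of reads, and limma on log2 of FPKM plus 1 or plus 0.1 gave 0.11 and 0.71 and did not call it.

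NRG2 encodes neuregulin 2, which binds the same receptors (ENSG00000158458, chromosome 5 from 139846779 to 140043299). Counts of NRG2 were 1, 1 and 0 under shNC, compared with 5, 6 and 6 under shNUF2. All shNUF2 libraries lay above the shNC libraries, at a level too low for the filter on reads. The ratio of summed reads per library size was 9.70, with an exact 95% interval from 2.30 to 86.6 for counting error only. The annotation places an antisense gene, AC008667.2, within NRG2, and the strand setting of the counting is not given in the sources used here.

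NRG4, a ligand of ERBB4, was the neuregulin with the most reads (ENSG00000169752, chromosome 15 from 75935969 to 76059795). Under shNC 246, 268 and 340 reads were counted for NRG4, and under shNUF2 283, 277 and 370. Read numbers overlapped between the groups, whereas after scaling to library size the shNUF2 libraries, at 21.0, 21.3 and 24.6 CPM, lay above the shNC libraries, at 17.3, 16.8 and 19.8 CPM. The log2 fold change was 0.31 with a standard error of 0.10, inside the fold threshold. FBXO22, a protein-coding gene on the opposite strand, overlaps NRG4, and without strand in the counting their reads cannot be told apart.

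**Figure D2:**
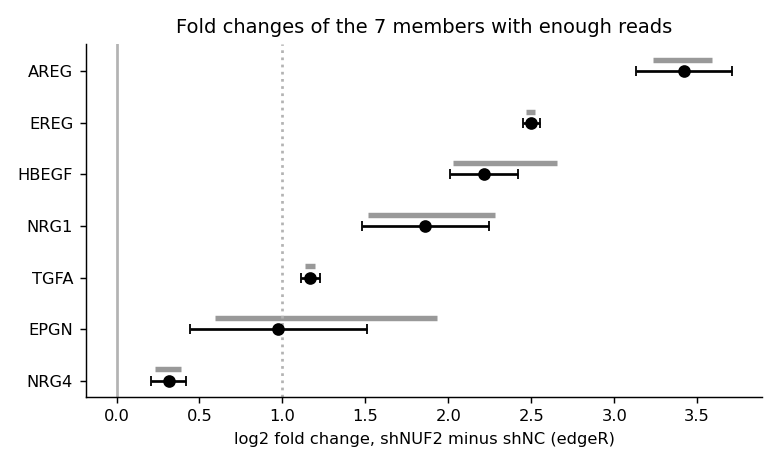
Log2 fold changes of shNUF2 against shNC for the 7 ligand genes with enough reads, with bars of 1 standard error from edgeR, grey bars for the range as single libraries were left out, and a dotted line at the threshold of 1. AREG stood at 3.42, EREG at 2.50 and TGFA at 1.17, and the grey bar of EPGN crossed the threshold, from 0.59 to 1.93.

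The order of the ligands by level differed between the groups and depended on the gene length used. By the deposited length, with shNC, TGFA was highest at 8.66 ± 0.326 FPKM, followed by EREG at 6.84 ± 0.244, NRG4 at 3.62 ± 0.319, HBEGF at 0.889 ± 0.412 and AREG at 0.383 ± 0.0941 (SD, n = 3). These neighbours in the order did not overlap, whereas BTC, EPGN, NRG1, NRG2 and EGF followed below 0.27 FPKM in every library, each overlapping the next. By the same length with shNUF2, EREG was highest at 37.7 ± 0.821 FPKM, followed by TGFA at 19.0 ± 0.609, with no overlap. NRG4 at 4.38 ± 0.401, HBEGF at 4.05 ± 0.222 and AREG at 4.004 ± 0.540 came next and did not differ beyond their spread. AREG lay below NRG4 in every shNC library, and their ranges overlapped with shNUF2. The deposited length of NRG4, 5020 bp, is also longer than its longest coding transcript, 1159 bp. By the length of that transcript, an alternative chosen after seeing the data, NRG4 was highest with shNC at 15.7 ± 1.38 FPKM, above TGFA at 9.88 ± 0.372 and EREG at 8.46 ± 0.302 (SD, n = 3). With shNUF2 and that length, EREG was highest at 46.6 ± 1.02 FPKM, TGFA at 21.6 ± 0.695 and NRG4 at 19.0 ± 1.74 overlapped, and AREG at 5.30 ± 0.715 lay below NRG4 in every library. EREG was thus highest with shNUF2 by both lengths, and the place of NRG4 in the order is uncertain.

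Summed over the 7 EGFR ligands, the level was 17.11, 16.97 and 17.15 FPKM in the shNC libraries and 66.0, 65.2 and 64.3 FPKM in the shNUF2 libraries, a ratio of 3.82. The groups were far apart, and the libraries of each group lay close together. TGFA made up 50.7 ± 1.68% of it with shNC and 29.1 ± 0.569% with shNUF2 (SD, n = 3 each). EREG made up 40.1 ± 1.21% with shNC and 57.9 ± 1.37% with shNUF2. AREG went from 2.24 ± 0.552% to 6.14 ± 0.814%, while HBEGF stood at 5.22 ± 2.45% and 6.21 ± 0.342%, within the spread of its shNC libraries. The 3 neuregulins together had a level of 3.66 ± 0.325 FPKM with shNC and 4.59 ± 0.376 with shNUF2, of which NRG4 supplied 98.9% and 95.5%. By reads its shares were 96.3% with shNC and 88.4% with shNUF2, and those of NRG1 3.49% and 9.95%. By the length of the longest coding transcript, the shares of NRG4 were 99.2% and 97.3%.

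**Figure D3:**
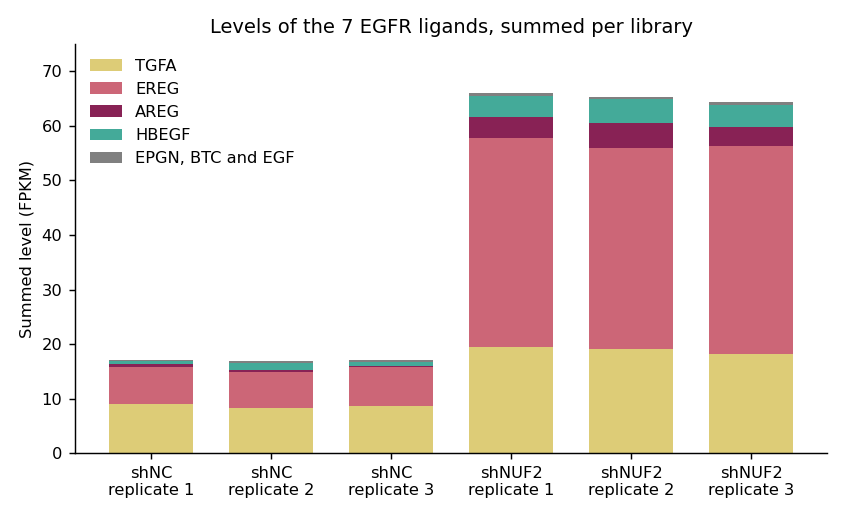
Summed level of the 7 EGFR ligands in FPKM for each library, with each bar divided by ligand. The shNC bars reached about 17.1 FPKM with TGFA as the largest part, and the shNUF2 bars about 65.2 FPKM with EREG as the largest part.

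On chromosome 4, the span from EPGN to BTC is 486 kb long and contains no other gene of the table (0 genes). Within 1000000 bp of either side, 21 further genes start, of which 11 were tested, 5 were higher and 0 were lower. The 5 were CXCL8, CXCL1, CXCL3, CXCL2 and CDKL2. The chemokine genes, whose products attract leukocytes, start at -625 to -268 kb from the start of EREG, on the side of EPGN, at log2 fold changes of 6.05 (CXCL8, standard error 0.09), 3.54 (CXCL1, 0.24), 3.71 (CXCL3, 0.21) and 2.20 (CXCL2, 0.12), with adjusted p from 7.87e-27 to 1.05e-12 (edgeR's quasi-likelihood test, Benjamini-Hochberg). Reads of CDKL2 numbered 1, 0 and 0 under shNC, against 15, 10 and 14 under shNUF2. CXCL1 met the read filter in 2 shNC libraries and CDKL2 in 0, so that both were tested only through their shNUF2 libraries. MTHFD2L, which lies between CXCL2 and EPGN, was at 0.18 (standard error 0.12, adjusted p = 0.199 from the same test), and RCHY1, the nearest tested gene beyond BTC, was at -0.03 (standard error 0.10, adjusted p = 0.821). Along this stretch the 4 chemokine genes were called, MTHFD2L and EPGN were not, EREG and AREG were, and RCHY1 was not. The 6 tested genes that were not called ranged from -0.80 for RASSF6 (adjusted p = 4.06e-06) to 0.50 for USO1 (adjusted p = 3.45e-10, same test). THAP6 at -0.54 (adjusted p = 5.00e-05) and G3BP2 at 0.33 (adjusted p = 5.58e-07) also differed, inside the fold threshold.

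**Figure D4:**
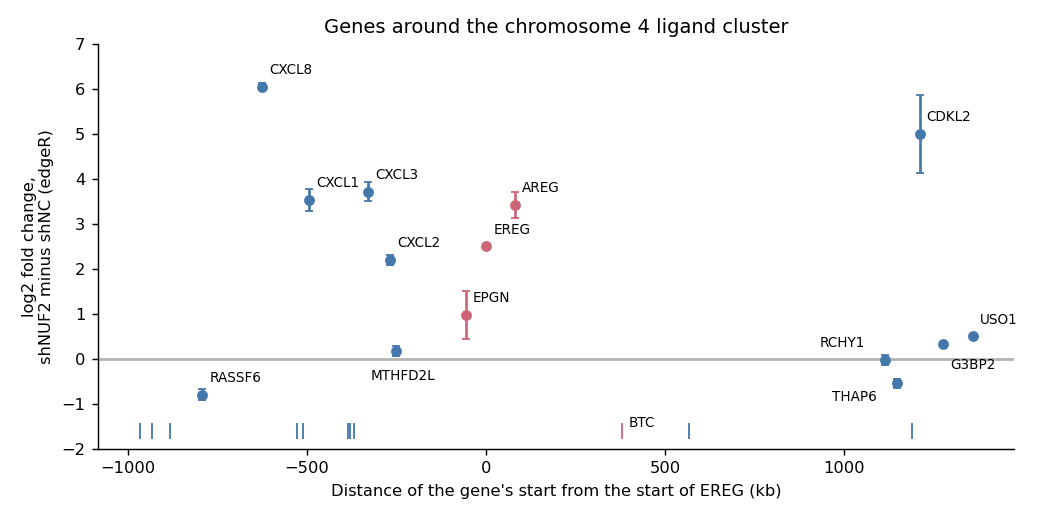
Log2 fold change of shNUF2 against shNC, with 1 standard error from edgeR, for genes around the chromosome 4 ligand cluster, against the distance of each gene's start from that of EREG in kb. Ligand genes are red, other genes blue, and ticks at the bottom mark genes with too few reads, BTC among them. CXCL8 reached 6.05, whereas MTHFD2L, between CXCL2 and EPGN, stood at 0.18.

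Of the 4 ERBB receptors, all tested, 0 were higher and 1, ERBB3, was lower, with a median log2 fold change of -0.22. Reads of EGFR numbered 6890, 7789 and 8144 under shNC, against 6946, 6309 and 7780 under shNUF2, and EGFR was at 0.07 on the log2 scale (standard error 0.04, adjusted p = 0.130, edgeR's quasi-likelihood test). ERBB3, the receptor of NRG1 and NRG2, fell from 16.7 ± 1.03 to 5.07 ± 0.239 FPKM (SD, n = 3 each; adjusted p = 4.76e-19, same test). ERBB2, which binds no ligand and pairs with the other receptors, was at -0.39 (standard error 0.07, adjusted p = 9.56e-06), inside the fold threshold. ERBB4, the receptor of NRG4, had at most 42 reads in any library and was at -0.06 (standard error 0.29). The summed level of the EGFR ligands was 0.438 ± 0.00995 times that of EGFR with shNC and 1.64 ± 0.0577 times with shNUF2 (SD, n = 3 each), in transcripts and not in protein.

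Of 14 genes that shed the ligands or govern shedding, 13 were tested, 1 was higher and 0 were lower, with a median log2 fold change of 0.20. The called gene was TIMP3, an inhibitor of ADAM proteases that is bound to the extracellular matrix, at 1.94 (standard error 0.08, adjusted p = 3.47e-17, edgeR's quasi-likelihood test). ADAM17, which cuts most EGFR ligands including EREG and AREG, was at 0.30 (standard error 0.07). ADAM10, which cuts EGF and BTC, was at -0.02 (standard error 0.05). RHBDF1 and RHBDF2, whose products iRhom1 and iRhom2 help ADAM17 mature, were at 0.70 (standard error 0.07) and -0.28 (0.13). FURIN, a protease that matures ADAM proteins, was at -0.27 (0.05). The tested genes that were not called ranged from -0.74 for BACE1 to 0.70 for RHBDF1, and with adjusted p under 0.05 and no fold threshold 7 genes of the list were higher and 2 lower.

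Of 14 negative regulators of the receptors, 13 were tested, 3 were higher and 0 were lower, with a median of 0.01. ERRFI1, the feedback inhibitor of EGFR also called MIG6, rose from 70.2 ± 8.66 to 371 ± 32.3 FPKM (SD, n = 3 each), a log2 fold change of 2.44 (standard error 0.07, adjusted p = 4.15e-21, same test). CBLB, a ubiquitin ligase of activated receptors, was at 1.17 (standard error 0.07, adjusted p = 1.19e-13), and LRIG1, a membrane protein that promotes receptor breakdown, at 1.09 (standard error 0.09, adjusted p = 3.14e-11). Among those not called, RNF41, a ubiquitin ligase of ERBB3, was at -0.81 (standard error 0.06) and USP8, which stabilizes RNF41, at -0.36 (0.07). With adjusted p under 0.05 and no fold threshold, 5 genes of this list were higher and 3 lower. Limma on log2(FPKM + 1) called ERRFI1 alone, with CBLB at 0.84 and LRIG1 at 0.86. Of 15 adaptors and kinases next to the receptors, 14 were tested, and GAB2 at 1.10 (standard error 0.08, adjusted p = 1.10e-12) and PIK3R1 at 1.99 (standard error 0.37, adjusted p = 3.39e-05) were higher, with 0 lower and a median of -0.12. PIK3R1 had no more than 42 reads in any library and met the read filter in 2 shNC and 3 shNUF2 libraries, so that it was tested only through its shNUF2 libraries. At 1 CPM or more in every library GAB2 alone was called, and limma on log2(FPKM + 1) called 0 genes of the list, with GAB2 at 0.89 and PIK3R1 at 0.23. With adjusted p under 0.05 and no fold threshold, 5 were higher and 4 lower.

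Of 16 genes that respond to ERK, the kinase downstream of these receptors, all 16 were tested, 9 were higher and 0 were lower, with a median of 1.29 against -0.01 over all genes tested. The smallest p belonged to FOSL1, a subunit of AP-1, at 2.32 (standard error 0.05, adjusted p = 9.40e-24), followed by the MAP kinase phosphatases DUSP5 at 2.37 (0.05, adjusted p = 6.25e-23) and DUSP6 at 2.33 (0.07, adjusted p = 8.63e-20), all by edgeR's quasi-likelihood test. Not every gene of the list rose, with EGR1 at -0.60 (standard error 0.09) and CCND1 at -0.70 (0.04). With adjusted p under 0.05 and no fold threshold, 12 genes of the list were higher and 3 lower. Like the other lists, it was chosen with earlier results of these data known, so its values are a description. The 5 lists outside the ligand family held 15 higher and 1 lower gene, and the replicate block gave the same 15 and 1.

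**Figure D5:**
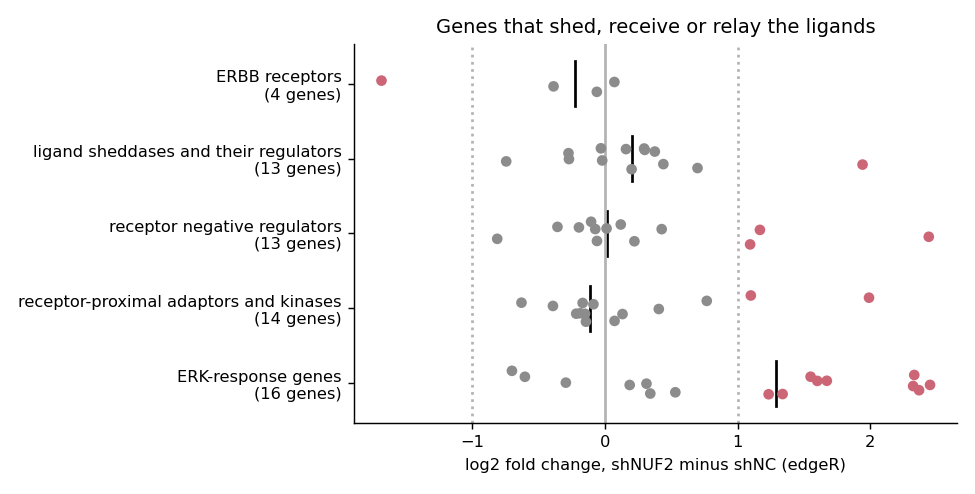
Log2 fold changes of shNUF2 against shNC for the tested genes of 5 lists around the ligands, with called genes in red, the others in grey, the median of each list as a black line and dotted lines at -1 and 1. ERBB3 was the only red point on the lower side, at -1.68, and 9 of 16 ERK-response genes lay beyond 1.

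The genes with the profile most like that of EREG were TRPV3, NRIP3, BLACAT1, BMP2 and SPRY4. Likeness was the Euclidean distance over the 6 libraries between log2 CPM values centred on the shNC mean, among 12789 genes with reads in every library, and it ran from 0.165 for TRPV3 to 0.253 for SPRY4. Their log2 fold changes lay between 2.45 and 2.53, with shNC means from 0.947 CPM for BLACAT1 to 28.7 CPM for BMP2. EREG itself stood at 2.50 and 38.6 CPM.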

How the data were processed

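RNA was extracted from OVCAR3 cells carrying shNC or shNUF2, and stranded mRNA libraries were sequenced on an Illumina instrument. Per the labels' processing notes, the authors used cutadapt, HISAT and HTSeq with GRCh38.p13, and versions and the strand setting are not given in the sources used here. The authors deposited raw read counts per gene and FPKM values computed from them and the gene length.

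Counts were analysed in R 4.3.3 with edgeR 4.0.16 (filterByExpr, TMM, quasi-likelihood test, all 6 libraries, no covariate, Benjamini-Hochberg adjustment over all genes tested). A gene was called at an unadjusted p under 0.05 when its log2 fold change also lay beyond 1, the thresholds of the study's methods read on the log2 scale. Standard errors were taken as log2 fold change over root F. DESeq2 1.42.0 and limma 3.58.1 served as alternatives. The main edgeR fit, the replicate block, edgeR with DESeq2 or upper quartile factors, DESeq2 and limma were also run on simulated data. The outcome of these runs is not reported here. The fits with library totals only, with other filters or with a library left out were not run on simulated data. Tables and exact intervals were made with Python 3.11.15 and scipy 1.17.1. With 3 libraries per group, an exact permutation test of 1 value cannot go below p = 0.10.

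The members and lists were chosen with earlier results of these data known. Named genes are all members, all ERBB receptors, up to 3 called genes with the smallest p from each other list, called genes near the chromosome 4 cluster with the nearest tested gene on each side, and the 5 genes most like EREG. Named outside this rule, after their values were seen, are ADAM17, ADAM10, RHBDF1, RHBDF2, FURIN, BACE1, RNF41, USP8, EGR1, CCND1, RASSF6, THAP6, G3BP2, USO1, FBXO22, AC008667.2 and the marker genes. Overlapping genes and transcript lengths come from GENCODE release 29 on GRCh38, and promoters from RefSeq. Protein sequences of the ligands, planned for a motif search, were not analysed here. Libraries of a group differed by more than sampling noise (chi-square per degree of freedom from 2.65 to 4.37), so none was treated as a repeat deposit of another. This does not show that they came from separate cultures. The summed level of the leukocyte markers is not reported here.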

Additional observations from a re-analysis of the deposited data

How the results depend on the processing

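The count of ligand genes called higher was 5 in the analysis reported and 5 to 6 as single libraries were left out. EPGN was added without shNC replicate 3, at 1.93. It was 6 with no filter, where NRG2 was added, and 6 with adjusted p under 0.05 and no fold threshold, where NRG4 was added. It was 3 with at least 1 CPM in every library, since AREG and NRG1 were then not tested, and 4 with limma on log2(FPKM + 1) or log2(FPKM + 0.1), where NRG1 was lost at 0.11 and 0.71. Of 102 fold changes of ligand genes under the alternatives, 99 were on the same side of the thresholds, 2 no longer passed, 1 newly passed and 0 changed sign. EREG, HBEGF and TGFA were called in every alternative fit. The genes called over the whole table numbered 1212 higher and 536 lower, 4363 and 4345 with no fold threshold, and 430 and 206 with limma on log2(FPKM + 1). With at least 1 CPM in every library, 756 were higher. The genes of the 5 pathway lists numbered 15 higher and 1 lower, and 29 and 14 with no fold threshold.

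The share of EREG among EGFR ligand levels was 45.5% with shNC and 65.5% with shNUF2 when reads replaced FPKM, and 41.3% with shNC by the length of the longest coding transcript, an alternative chosen after seeing the data. The share of TGFA was 28.4% with shNUF2 by reads, and 48.2% with shNC and 27.2% with shNUF2 by that length. EREG and TGFA changed places under each basis. In the order of all 10 ligands, NRG4 went from rank 3 to rank 1 with shNC by that length. No effect shared by same-numbered libraries was seen, as their deviations were correlated at 0.04, 0.02 and -0.05. This does not show whether such libraries were prepared together. With the replicate block 1207 genes were higher and 536 lower. Depth limits EGF, BTC and NRG2, which had too few reads for the test. EPGN had a standard error of 0.53, with 2, 5 and 15 reads in its shNC libraries, and the source of that spread was not tested.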
